A study of Mus musculus with 2 samples.

Results

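The genes described here are the type I interferon response genes, those that cells switch on when interferon α or β binds its receptor. They were taken by symbol from a list of 49 genes. Of these, 47 were among the 32287 features of the count matrices, and all 47 had UMIs in both libraries. *Mx1* and *Mx2* were not analysed here. The samples are 2 scRNA-Seq libraries of muscle cells at 7 dpi, 1 after injections of an SPP1-neutralizing antibody (SPP1-nAb) and 1 after goat anti-mouse IgG. Pooled male mice aged 10 to 16 weeks had both peroneal nerves crushed, and 2 μg of antibody in 10 μL was injected into the TA at injury and every 2 days after it, in both groups. The labels give the strain as C57BL/6J and the muscles as TA and GTN, whereas the methods of the study name *S100GFP*-tg mice and TA. The library titles name GFP-positive cells only, whereas the protocols describe sorting both GFP+ and GFP– cells that excluded propidium iodide. The number of pooled mice is not given in the sources used here.

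Type I interferons signal through IFNAR1 and IFNAR2 and the kinases JAK1 and TYK2, and a transcription factor complex that includes STAT2 and IRF9 then binds interferon-stimulated response elements in promoters. The induced proteins sense or bind foreign RNA and DNA, degrade it, block viral entry and release, and feed back on the pathway. In injured tissue, monocytes and macrophages can make this response without infection, for example when they sense DNA or RNA of dead cells.

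The members include several tandem families. The 5 IFIT genes lie together at chr19:34527932-34632174, the 5 Schlafen genes at chr11:82842100-83081042, 4 guanylate-binding protein genes at chr3:142199739-142343779 and 4 OAS genes at chr5:120868398-121046449 (GRCm39). *Rsad2* and *Cmpk2* are neighbors at chr12:26492745-26529836. The 250 bases before the transcription start are printed for 4 members that stood among the lower ones in SPP1-nAb monocytes and for *Slfn2*, which differed little there. Capitals mark the core of the response element, GAAANNGAAA on either strand. The windows are chr19:34560649-34560898 (plus strand), chr19:34585078-34585327 (plus), chr4:156285304-156285553 (minus), chr12:26506452-26506701 (minus) and chr11:82955359-82955608 (plus), each written 5′ to 3′ along its gene.
Ifit3: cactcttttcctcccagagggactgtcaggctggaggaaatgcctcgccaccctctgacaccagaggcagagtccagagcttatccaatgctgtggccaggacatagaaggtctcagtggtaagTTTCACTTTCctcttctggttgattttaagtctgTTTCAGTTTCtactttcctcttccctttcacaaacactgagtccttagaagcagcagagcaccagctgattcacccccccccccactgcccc
Ifit3b: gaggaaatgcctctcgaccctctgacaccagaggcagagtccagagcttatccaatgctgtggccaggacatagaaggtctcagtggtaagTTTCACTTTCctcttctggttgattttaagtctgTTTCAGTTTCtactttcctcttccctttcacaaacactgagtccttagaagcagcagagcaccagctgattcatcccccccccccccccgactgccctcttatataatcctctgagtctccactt
Isg15: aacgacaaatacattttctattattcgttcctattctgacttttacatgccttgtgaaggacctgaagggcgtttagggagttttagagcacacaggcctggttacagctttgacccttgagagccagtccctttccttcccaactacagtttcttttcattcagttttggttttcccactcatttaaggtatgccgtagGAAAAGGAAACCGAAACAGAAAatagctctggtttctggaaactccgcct
Rsad2: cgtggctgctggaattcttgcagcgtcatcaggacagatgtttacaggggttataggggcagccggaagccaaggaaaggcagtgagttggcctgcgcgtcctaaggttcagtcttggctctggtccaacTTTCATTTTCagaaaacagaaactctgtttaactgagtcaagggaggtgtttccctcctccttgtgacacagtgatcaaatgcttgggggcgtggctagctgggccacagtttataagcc
Slfn2: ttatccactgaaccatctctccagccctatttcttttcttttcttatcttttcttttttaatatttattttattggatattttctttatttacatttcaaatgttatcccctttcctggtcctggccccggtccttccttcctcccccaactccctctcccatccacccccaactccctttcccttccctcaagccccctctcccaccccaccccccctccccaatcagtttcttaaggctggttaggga
*Ifit3* and *Ifit3b* share an identical run of 182 bases with both of their matches, and *Isg15* has 3 overlapping matches, the nearest starting 38 bases before the transcription start. The core was found in 20 of 47 member promoters (42.6%) and in 702 of 21261 protein-coding promoters (3.30%). The core of the gamma-activated site, TTCNNNGAA, was found in 8 members (17%) and in 1641 of all promoters (7.72%). By family, the response element core was in 4 of 5 IFIT, 3 of 6 OAS and 1 of 5 GBP and IRG promoters, and the gamma-activated core in 3 of those last 5. The printed promoters are examples picked for display. *Ifit2*, *Cmpk2*, *Slfn4*, *Isg20* and *Phf11d*, also among the lower members in SPP1-nAb monocytes, had no match to the response element core. A match is a description of letters and not a binding site.

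The libraries held 23779 (IgG) and 25069 (SPP1-nAb) barcodes, 163 of them in both, and 21046 and 22282 cells were kept with a median of 3651 and 4583 UMIs. Cells were assigned to classes by marker genes that include no member, and these rebuilt classes are called by name with the suffix -like. Of the kept cells, 12.2% and 9.65% showed fewer than 3 markers and 0.889% and 1.01% lay near the boundary between classes. Of the mononuclear phagocytes, 24.8% and 23.7% took no state. With 1 library per group there is no replicate and no test of the treatment. All intervals are exact 95% intervals that cover counting error only, and treatment, mouse pool and library cannot be told apart.

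In all kept cells together, which are sorted single cells and not whole muscle, the 47 members made up 7259 of 1000000 UMIs (CPM) with IgG. In the SPP1-nAb library they made up 5922 CPM. Over all mononuclear phagocyte-like cells they gave 9239 and 6670 CPM, and 21 of 47 were lower by at least 1.5-fold with SPP1-nAb, against 8.14% of all genes with 100 UMIs, and none was higher, against 2.98%. Their level differed widely by cell class. In the IgG library it was highest in Ly6c2 monocyte-like cells, at 21918 CPM, followed by neutrophil-like cells at 14666 and Arg1 Cxcl3 inflammatory phagocyte-like cells at 10959. Plasmacytoid dendritic-like cells had 8808 CPM, Gpnmb Atp6v0d2 lipid-handling-like phagocytes 7858, MHC-II-high macrophage-like cells 7821, endothelial-like cells 7252 and cDC2-like cells 6932. Lyve1 resident macrophage-like cells followed at 6352 CPM, and mesenchymal-like cells, the fibro-adipogenic cells of muscle, at 3662. Pericyte-, satellite cell- and tenocyte-like cells had 1897, 1826 and 1773 CPM. Schwann-like cells were lowest at 966. The intervals of the last 3 before Schwann-like cells overlapped (1771 to 2029, 1780 to 1872 and 1712 to 1836 CPM), as did those of lipid-handling- and MHC-II-high-like cells. Monocyte-like cells made up 5.34% of IgG cells but held 17.3% of member UMIs. In the SPP1-nAb library they were 5.61% of cells and held 11.6%.

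**Figure D1:**
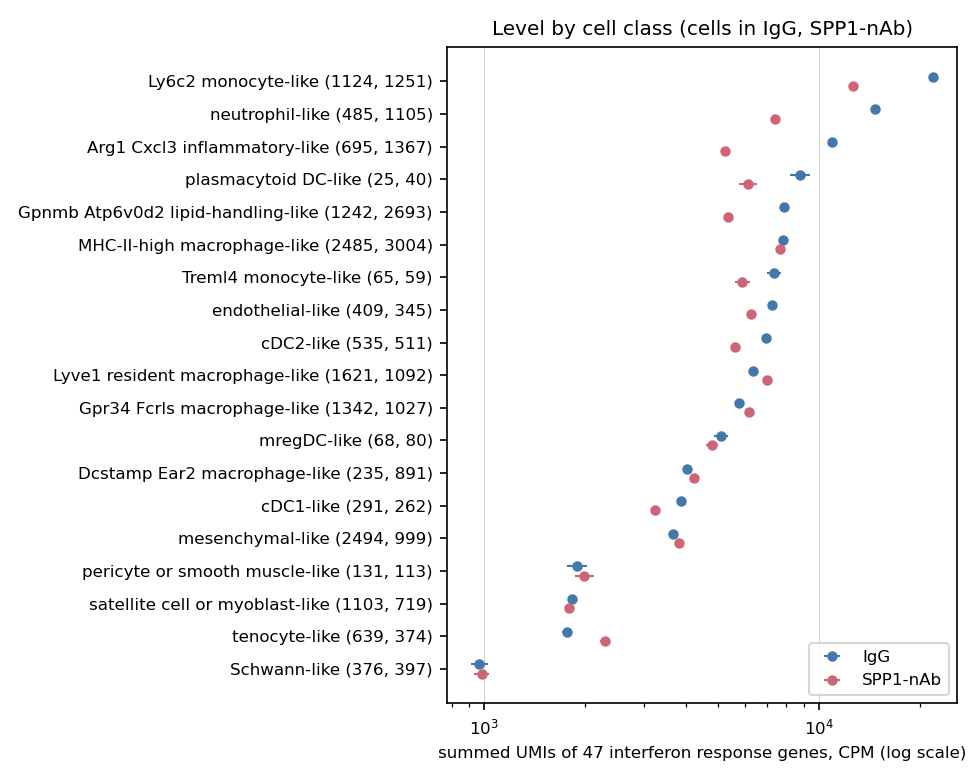
Summed CPM of the 47 members (log axis) in each cell class, 1 point per library with its exact Poisson interval. IgG and SPP1-nAb points stand apart in Ly6c2 monocyte-like cells (21918 and 12674 CPM), inflammatory-like phagocytes (10959 and 5231) and neutrophil-like cells (14666 and 7372), and lie close together in Schwann-like cells (966 and 984).

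In Ly6c2 monocyte-like cells, which carry markers of monocytes recruited from blood, the members summed to 21918 CPM in the IgG library and 12674 CPM in the SPP1-nAb library, 1.73 times higher with IgG. The log2 ratio of SPP1-nAb over IgG was −0.79 (−0.80 to −0.78). All 47 members were lower with SPP1-nAb, and 38 of 47 were lower by at least 1.5-fold, whereas 3.68% of all genes with 100 UMIs in these cells were. None was higher by that fold, against 2.48% of all genes. The median member had a log2 ratio of −0.86, and the median gene 0.05. In a clustering of all kept cells, cluster 1 held 82.2% and 74.3% of these cells. Cluster 4, matched to the Arg1 Cxcl3 inflammatory state, held 10.1% and 18.0%. The part of this difference in the values was not tested. With classes taken from clusters the summed ratio was −0.73.

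The IFIT proteins, which bind foreign RNA and block its translation, differed most. *Ifit2* was at 466 CPM with IgG and 132 with SPP1-nAb (log2 −1.82, −1.94 to −1.70). *Ifit3* was at 295 and 59.6 CPM (−2.31, −2.48 to −2.14). *Ifit1bl1*, at 114 and 24.9 CPM, and *Ifit3b*, at 53.0 and 9.28, had log2 ratios of −2.19 and −2.51, and *Ifit1*, at 109 and 31.6, one of −1.79. All 5 IFIT genes were therefore past 1.5-fold, and together they gave 1037 and 258 CPM. *Ifit3* and *Ifit3b* share 13.7% and 15% of the 90-base windows in their last 1000 transcribed bases, so reads can be divided between them with error.

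*Isg15*, a ubiquitin-like protein that is attached to other proteins, was at 2134 CPM with IgG and 902 with SPP1-nAb (−1.24, −1.29 to −1.19). *Usp18*, the protease that removes ISG15 and dampens receptor signaling, was at 91.3 and 41.8 CPM (−1.13). *Herc6*, the ligase of ISG15 in mice, was at 98.2 and 48.3 (−1.02). Among the antiviral effectors, *Rsad2* (viperin, which makes a chain-terminating nucleotide) was at 746 and 232 CPM (−1.69) and its neighbor *Cmpk2*, a mitochondrial nucleotide kinase, at 121 and 36.4 (−1.73). The exonuclease gene *Isg20* was at 192 and 60.8 CPM (−1.66). These genes lay between −1.02 and −1.73 on the log2 scale. *Xaf1*, which promotes apoptosis, was at 253 and 114 CPM (−1.15), and *Zbp1*, a sensor of Z-form nucleic acids that drives necroptosis, at 383 and 211 (−0.86). *Bst2* (tetherin), which holds budding virus at the cell surface, was at 887 and 478 CPM (−0.89). *Ifitm3*, which blocks viral fusion and had the most UMIs of the members in these cells, was at 5042 and 3643 (−0.47), short of 1.5-fold.

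The 4 transcription factors divided in their values. *Irf7*, the inducible factor of the positive feedback on interferon genes, was at 623 CPM with IgG and 258 with SPP1-nAb (−1.27, −1.36 to −1.18). *Stat2* was at 171 and 99.2 CPM (−0.78). *Irf1*, which interferon gamma and NF-κB also induce, was at 131 and 114 (−0.20), and *Irf9* at 60.3 and 51.0 (−0.24, with an upper bound of 0.00). *Irf7* and *Stat2* were thus past 1.5-fold, and *Irf1* and *Irf9* were not. The RNA sensor genes *Ifih1* (MDA5) and *Dhx58* (LGP2) were at 231 and 128 CPM (−0.85) and at 64.5 and 31.1 CPM (−1.05).

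The 2 PYHIN genes, of a family that binds DNA, were at 1307 and 768 CPM (*Ifi204*, −0.77) and at 886 and 456 (*Ifi211*, −0.96). *Ifi211* shares 72.3% of its 3′ windows with *Ifi205* and *Mndal*, and its count is uncertain. All 6 OAS genes, for enzymes that activate RNase L and their relatives, were lower with SPP1-nAb, and 5 of 6 were past 1.5-fold. The leading ones, *Oasl1* and *Oasl2*, were at 225 and 99.3 CPM (−1.18) and at 167 and 94.3 (−0.82). *Oas1a* and *Oas1g* share 48.0% of their 3′ windows, which leaves the division between them uncertain.

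Within the Schlafen locus the neighbors differed by unequal amounts. *Slfn4*, a gene of immature myeloid cells, was at 485 and 149 CPM (−1.70, −1.82 to −1.59). *Slfn1* was at 305 and 161 (−0.92), *Slfn5* at 743 and 427 (−0.80) and *Slfn8* at 171 and 102 (−0.75). *Slfn2*, which maintains quiescence of immune cells, was at 1416 and 1338 CPM (−0.08, −0.13 to −0.04), the smallest difference of the 47 members.

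Of the GTPases that attack vacuoles of pathogens, *Gbp7* was at 126 and 77.7 CPM (−0.70) and *Ifi47* at 184 and 123 (−0.58). Past 1.5-fold were 3 of 5, *Gbp7*, *Gbp3* (−0.64) and *Gbp5* (−0.84). *Ifi47* and *Gbp2* (−0.37) were short of it. Of the 7 remaining genes 6 were past it. *Ms4a4c*, a membrane protein gene, was at 1231 and 688 CPM (−0.84), *Epsti1* at 553 and 337 (−0.71) and *Phf11d* at 236 and 81.8 (−1.53). Members with the response element core in the promoter had a median log2 ratio of −0.93 (20 genes) and those without it −0.84 (27 genes), and the ranges overlapped (−2.51 to −0.49 and −1.82 to −0.08). In inflammatory-like phagocytes the medians were −1.48 (18 genes) and −1.19 (25 genes), again with overlapping ranges (−2.73 to −0.87 and −2.21 to −0.05).

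**Figure D2:**
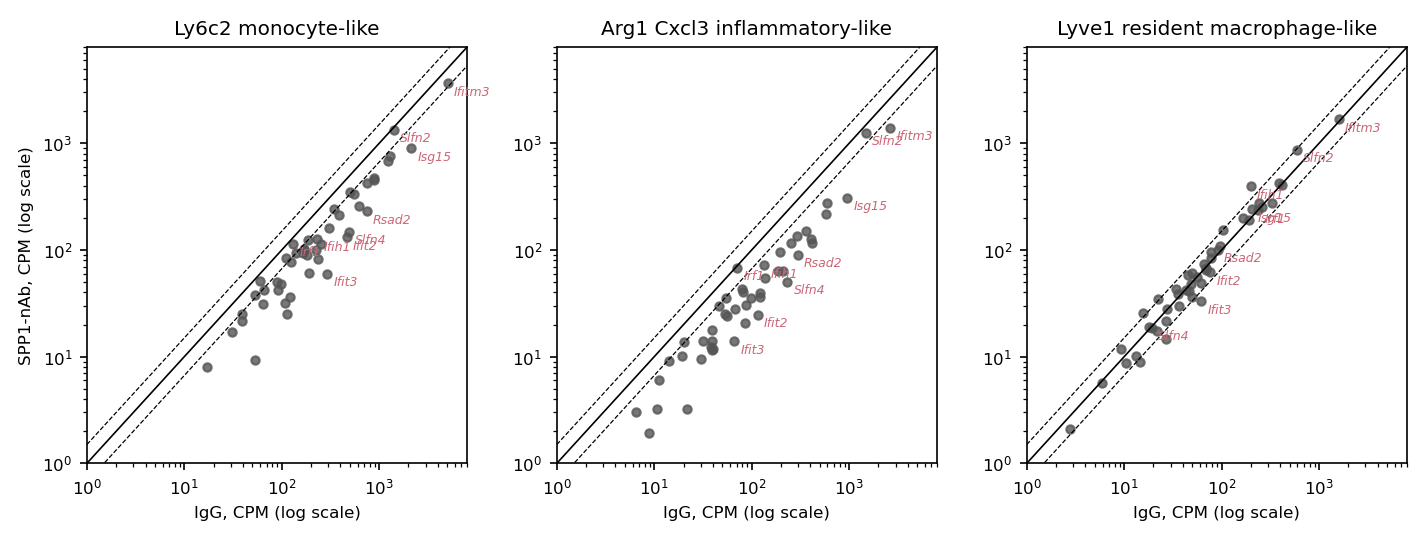
CPM of each member with SPP1-nAb (y axis) against IgG (x axis), both log axes, in Ly6c2 monocyte-like cells, Arg1 Cxcl3 inflammatory-like phagocytes and Lyve1 resident macrophage-like cells, 1 point per member, with a solid line of equal level and dashed lines at 1.5-fold. In monocyte-like cells every point lies below the line of equal level, with *Ifit3* (295 and 59.6 CPM) far from it and *Slfn2* (1416 and 1338) close to it, whereas in Lyve1 macrophage-like cells the points lie on both sides.

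Arg1 Cxcl3 inflammatory-like phagocytes, marked by arginase 1 and neutrophil-attracting chemokines, gave 10959 CPM with IgG and 5231 CPM with SPP1-nAb, 2.10 times higher with IgG (log2 −1.07, −1.09 to −1.05). Of the 43 members with 100 UMIs all were lower with SPP1-nAb, and 40 of 43 by at least 1.5-fold, against 2.98% of all genes. None was higher by that fold, against 3.53%. The 3 short of it were *Slfn2* (1480 and 1259 CPM, −0.23), *Irf1* (70.7 and 68.1, −0.05) and *Gbp2* (20.3 and 13.6, −0.58). The median member had −1.33, and the median gene 0.08.

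The order of roles resembled that in monocyte-like cells, with IFIT genes at −2.18 and Schlafens at −0.56. *Isg15* was at 963 and 309.7 CPM (−1.64), *Ifit2* at 115 and 24.8 (−2.21) and *Ifit3* at 66.0 and 13.9 (−2.25). *Slfn4* was at 233 and 50.5 CPM (−2.20), *Irf7* at 209 and 63.9 (−1.71) and *Rsad2* at 296 and 89.9 (−1.72). *Ms4a4c*, at 421 and 116 CPM (−1.86), and *Phf11d*, at 85.8 and 20.9 (−2.04), differed more than in monocyte-like cells in these values, though the difference between classes was not tested. These cells were 695 with IgG and 1367 with SPP1-nAb. Cluster 4, matched to this state, held 43.9% and 51.0% of them. Cluster 0, matched to the lipid-handling state, held 44.5% and 42.1% of them. It also held 79.9% and 70.0% of the lipid-handling-like phagocytes described next, so gates and clusters divide these 2 states differently. With classes taken from clusters the summed ratio was −0.71.

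Lipid-handling-like phagocytes, marked by *Gpnmb* and the lysosomal proton pump subunit *Atp6v0d2*, gave 7858 and 5367 CPM (−0.55, −0.57 to −0.53). Of 47 members 24 were lower by 1.5-fold, against 2.95% of all genes, and none was higher, against 2.55%. *Slfn4* was at 139.9 and 36.6 CPM (−1.94), *Ifit3* at 94.1 and 30.2 (−1.64), *Isg15* at 629.9 and 306 (−1.04) and *Ms4a4c* at 248 and 107 (−1.21). The GBP and IRG genes together were at 111 and 118 CPM (0.08, −0.04 to 0.20), and none of the 5 was past 1.5-fold.

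Neutrophil-like cells gave 14666 and 7372 CPM (−0.99, −1.03 to −0.95). Of 29 members with 100 UMIs 23 were lower by 1.5-fold, against 4.36% of all genes, and none was higher, against 6.98%. *Isg15* was at 2228 and 666 CPM (−1.74, −1.86 to −1.63), *Ifit3* at 385 and 69.9 (−2.46) and *Slfn4* at 1523 and 624 (−1.29). *Slfn2*, at 1869 and 1770 CPM (−0.08), and *Irf1*, at 244 and 267 (0.13), differed little. Neutrophil-like cells were shallow, with a median of 1235 and 1380 UMIs, and other cell types' markers placed the share of free RNA at 3.47% with IgG and 29.6% with SPP1-nAb, whose part in the result was not tested. With that estimate subtracted the ratio was −0.95. At 2000 UMIs per cell only 10 and 89 cells were left, with a ratio of −0.73 and 2 members lower by 1.5-fold. In those cells only *Ifitm3*, *Slfn1* and *Slfn2* had 100 UMIs in the SPP1-nAb library by itself. The number of members counted and the share of all genes are not given there. The 2 can thus not be set against 23 of 29.

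**Figure D3:**
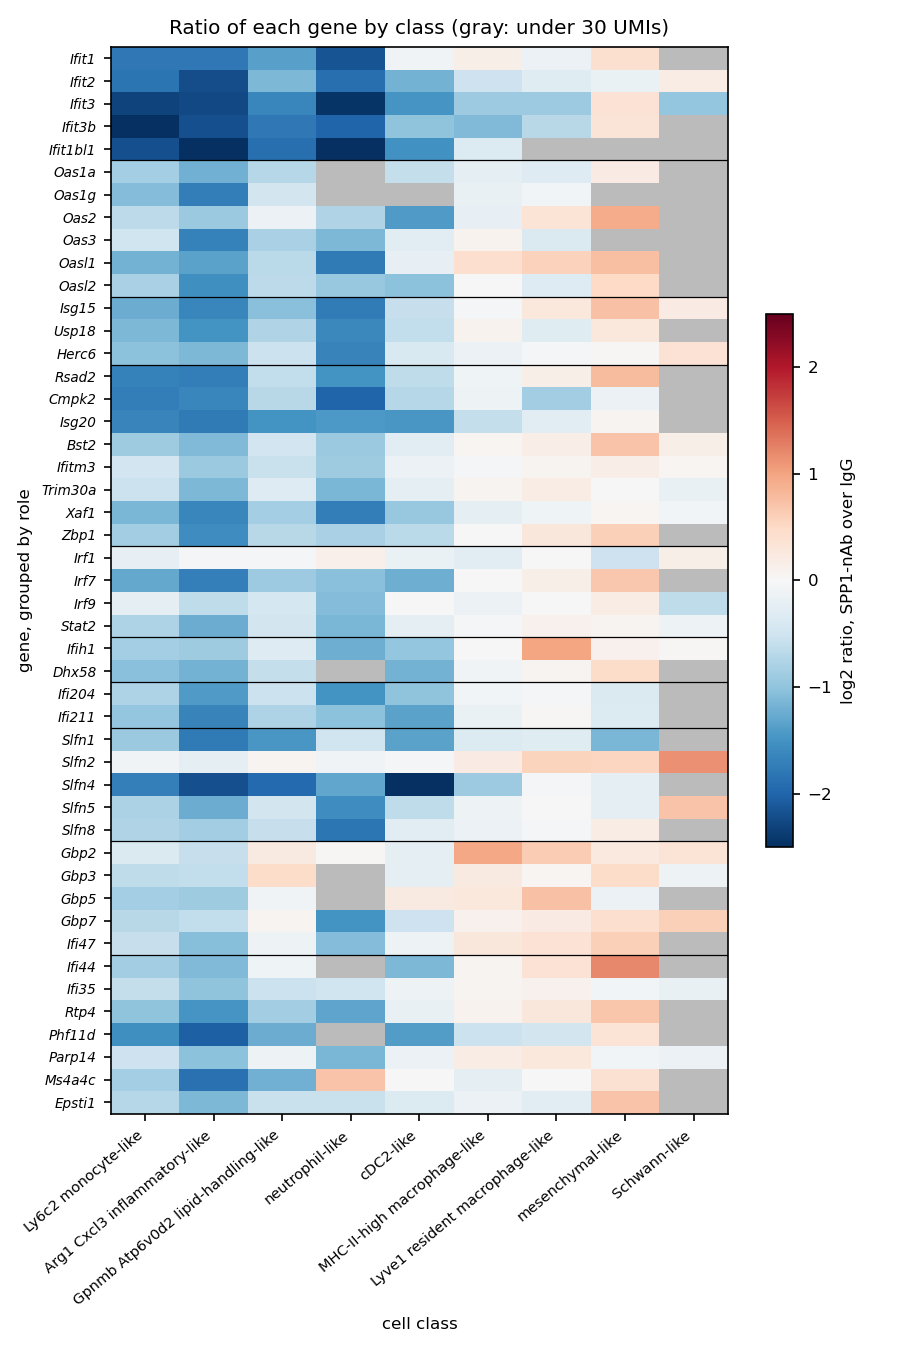
Log2 ratio of SPP1-nAb over IgG in color for each of the 47 members, grouped by role (y axis), in 9 cell classes (x axis), gray under 30 UMIs, with ratios beyond the ends of the scale in the end color. The IFIT genes are dark blue in monocyte- and inflammatory-like cells (−2.31 and −2.25 for *Ifit3*), *Slfn2* and *Irf1* are pale there (−0.08 and −0.20 in monocyte-like cells), and *Isg15* is red in mesenchymal-like cells (0.73).

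In the other macrophage states the summed ratios lay near 0, and the difference from the states above was not tested. Lyve1 resident macrophage-like cells, the long-lived macrophages of muscle, gave 6352 CPM with IgG and 7021 with SPP1-nAb (0.14, 0.12 to 0.16). Of 45 members 3 were lower by 1.5-fold (3.73% of all genes) and 3 higher (3.56%), with a median of 0.02. After thinning or with classes from clusters 1 was lower, and the share of all genes there is not given. *Ifih1* was at 199 and 394 CPM (0.99, 0.89 to 1.09), whereas in monocyte-like cells it was at 231 and 128. *Gbp2* was at 22.5 and 34.8 CPM (0.63) and *Gbp5* at 15.5 and 25.7 (0.73). The lower ones were *Ifit3* (61.8 and 33.2 CPM, −0.90), *Ifit3b* (14.4 and 8.88, −0.70) and *Cmpk2* (27.0 and 14.7, −0.87). *Isg15* was at 203 and 242 CPM (0.26).

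MHC-II-high macrophage-like cells gave 7821 and 7664 CPM (−0.03, −0.04 to −0.02), with 4 of 47 members lower by 1.5-fold (3.93% of all genes) and 1 higher (2.52%). The lower ones were *Ifit3* (67.2 and 36.1 CPM), *Ifit3b* (17.2 and 7.96), *Isg20* (35.7 and 23.5) and *Slfn4* (54.3 and 29.1), and the higher one was *Gbp2* (27.3 and 53.2 CPM, 0.96). Gpr34 Fcrls macrophage-like cells gave 5759 and 6173 CPM (0.10), with 1 of 44 lower (2.94% of all genes), *Ifit3* (58.5 and 35.1 CPM), and 1 higher (3.24%), *Isg20* (8.22 and 13.4). Dcstamp Ear2 macrophage-like cells gave 4032 and 4234 CPM (0.07), with 2 of 34 lower (4.44%) and 6 higher (7.38%). Among those 6, *Rsad2* was at 33.2 and 67.2 CPM (1.02) and *Ifi204* at 121 and 195 (0.69), and of the 2 lower ones *Ifih1* was at 139 and 59.8 (−1.21). *Ifit3* was thus lower with SPP1-nAb in the Lyve1, MHC-II-high and Gpr34 states too. Treml4 monocyte-like cells, which carry markers of patrolling blood monocytes, were 65 and 59 cells. They gave 7359 and 5910 CPM (−0.32, −0.42 to −0.22), with 1 of 5 members lower (4.48%) and none higher (3.14%). Their free-RNA estimate, from the markers of other cell types, was 2.56% with IgG and 18.0% with SPP1-nAb. It equals 186 and 1065 member CPM, and its part in the result was not tested.

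Dendritic-like cells had smaller differences in the sum. In cDC2-like cells the members gave 6932 and 5619 CPM (−0.30, −0.33 to −0.27), and 15 of 34 were lower by 1.5-fold, against 3.47% of all genes, with none higher (4.06%). The count was 7 after thinning to 2000 UMIs and 23 of 46 with a minimum of 30 UMIs. The share of all genes under these 2 settings is not given. The median member had a log2 ratio of −0.59, and the median gene 0.01. *Irf7* was at 107 and 45.8 CPM (−1.23), *Ifi211* at 181 and 71.6 (−1.34), *Phf11d* at 58.1 and 22.0 (−1.40) and *Isg20* at 54.7 and 20.0 (−1.45). *Ifitm3*, at 2510 and 2270 CPM (−0.15), and *Slfn2*, at 555 and 548 (−0.02), held much of the sum. In cDC1-like cells, which cross-present antigen to CD8 T cells, the sum was 3883 and 3249 CPM (−0.26), with 7 of 24 lower (3.20% of all genes) and 1 higher (3.81%). *Slfn5* was at 301 and 159 CPM (−0.93), and the one higher was *Oasl1* (22.1 and 65.3 CPM, 1.56).

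Plasmacytoid dendritic-like cells, the cell type known for making much type I interferon, were 25 and 40 cells. Their sum was 8808 and 6151 CPM (−0.52, −0.65 to −0.38), and *Bst2*, a surface marker of this cell type in mice, alone gave 3861 and 3495 CPM. Without *Bst2*, *Ifitm3* and *Irf1* the sum was 3689 and 1917 CPM (−0.94). Only 3 members had 100 UMIs, and *Trim30a* (721 and 338 CPM) and *Irf1* (785 and 469.8) were past 1.5-fold, against 3.97% of all genes, with none higher (2.73%). mregDC-like cells, 68 and 80 of them, gave 5093 and 4797 CPM (−0.09, −0.18 to 0.01), and none of 6 members was lower (3.69% of all genes) or higher (5.70%). T, NK and B cells were too few to describe.

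Mesenchymal-like cells gave 3662 and 3815 CPM (0.06, 0.04 to 0.08). The sum turned to −0.01 without the member with the most UMIs and to −0.02 without *Ifitm3*, *Bst2* and *Irf1*. No member of 36 was lower by 1.5-fold (7.15% of all genes) while 8 were higher (5.22%). These were *Isg15* (70.0 and 116 CPM, 0.73), *Bst2* (125 and 205, 0.71), *Rsad2* (8.79 and 15.3, 0.80), *Irf7* (17.6 and 27.9, 0.67), *Zbp1* (15.9 and 24.2, 0.60), *Rtp4* (20.4 and 33.0, 0.69), *Ifi44* (4.47 and 10.4, 1.21) and *Ifi47* (10.1 and 15.2, 0.59). Of the more abundant members, *Ifitm3* was at 1465 and 1639 CPM (0.16). Ratios below 0 were found for *Ifi204* at 416 and 323 CPM (−0.36), *Slfn5* at 303 and 260.5 (−0.22) and *Irf1* at 230.1 and 160.1 (−0.52). Different clusters held most of these cells in the 2 libraries, cluster 8 with 57.1% and 25.2% and cluster 11 with 19.6% and 61.5%. Within cluster 8 the summed ratio was 0.03, with 6 of 33 members higher and 1 lower by 1.5-fold. Within cluster 11 it was 0.11, with 2 of 33 higher and none lower. Cluster 20 had 0.02 (−0.14 to 0.17), with none of 4 higher and 2 lower. Without *Ifitm3*, *Bst2* and *Irf1* the ratios of clusters 8 and 11 were −0.09 (−0.14 to −0.04) and 0.12 (0.07 to 0.17). The shares of all genes within clusters are not given. The free-RNA estimate for these cells was 11.5% and 21.2%, equal to 835 and 1256 member CPM, and its part in the higher values was not tested. Of the 8 higher members, *Bst2*, *Rtp4* and *Ifi44* were at 2 times their own free-RNA estimate or more in both libraries. *Rsad2* lay below its estimates of 17.2 and 20.7 CPM, so the estimate is too high for it. Its values were not told apart from background. The other 4 lay above their estimates but under 2 times them in at least 1 library. Their estimates were 56.3 and 68.8 CPM for *Isg15*, 15.8 and 20.1 for *Irf7*, 10.4 and 15 for *Zbp1* and 5.02 and 9.07 for *Ifi47*.

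Endothelial-like cells gave 7252 and 6267 CPM (−0.21, −0.27 to −0.15), with 3 of 19 members lower by 1.5-fold (3.98% of all genes) and 1 higher (3.47%). *Slfn5*, at 1091 and 723 CPM (−0.59), was the most abundant of the lower ones. Tenocyte-like cells gave 1773 and 2292 CPM (0.37, 0.30 to 0.44), with *Bst2* (141 and 318 CPM, 1.18) and *Slfn5* (30.6 and 53.6, 0.81) higher by 1.5-fold among 5 members, against 5.11% of all genes, and none lower (3.80%). Free RNA was estimated at 868 and 726 member CPM in tenocyte-like cells, and *Slfn5* with IgG lay below its own estimate of 34.0 CPM. *Bst2* had estimates of 46.7 and 42.8, and the part of free RNA in these values was not tested. Satellite cell-like and pericyte-like cells gave 1826 and 1790 CPM (−0.03, −0.08 to 0.02) and 1897 and 1995 (0.07, −0.06 to 0.21). None of 15 members in satellite cell-like cells was lower (5.22% of all genes) or higher (6.22%), and of 4 members in pericyte-like cells 1 was lower (3.20%) and none higher (4.01%).

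Schwann-like cells, the glia of nerve and neuromuscular junction, gave 966 CPM with IgG (376 cells) and 984 with SPP1-nAb (397 cells), a log2 ratio of 0.03 with an interval of −0.09 to 0.14. When doublets were kept the ratio was −0.23 (−0.33 to −0.13), and when clusters set the classes it was 0.22 (0.12 to 0.31), so its direction was not settled. None of the 7 members with 100 UMIs was past 1.5-fold in either direction, where 2.08% and 1.45% of all genes were. The level was 4.50 (IgG) and 3.69 (SPP1-nAb) log2 units below that of monocyte-like cells. Free RNA of the library was estimated to give 721 and 601 CPM of members here. *Ifi204*, at 5.96 and 11.2 CPM, lay below its estimates of 40.7 and 30.3, and *Epsti1*, at 3.41 and 2.79, below 22.6 and 18.2. The estimate is thus too high for such members, and the background part of the sum was not settled. *Ifitm3*, at 186 and 192 CPM, was near its free-RNA estimates of 186 and 159.6, and *Slfn2*, at 8.52 and 18.8, lay below its estimates of 65.8 and 87.2. Of 19 members with 30 UMIs, 13 were at 2 times the estimate or more in both libraries. *Xaf1* was at 134 and 128 CPM against 9.03 and 6.24, *Parp14* at 57.1 and 51.6 against 12.9 and 12.5, *Ifit2* at 39.2 and 44.6 against 10.5 and 5.46, and *Gbp7* at 25.6 and 38.4 against 5.66 and 5.30.

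Compared at 2000 UMIs per cell, the median IgG monocyte-like cell had 34.5 member UMIs and the median SPP1-nAb cell 19.0, with 10th to 90th percentiles of 10 to 90 and 7.00 to 53.0. At least 5 members were detected in 90.8% (88.9 to 92.4) and 80.1% (77.7 to 82.3) of cells, and without thinning in 95.9% and 94.0%. In inflammatory-like phagocytes the medians were 17 and 7.00 UMIs and the shares 77.2% (73.9 to 80.3) and 41.4% (38.7 to 44.1). In Lyve1 macrophage-like cells the shares were 68.4% (65.9 to 70.7) and 76.1% (73.3 to 78.6). Schwann-like cells had 4.52% (2.49 to 7.46) and 6.09% (3.86 to 9.08) at a depth without thinning of 2896 and 3381 UMIs. They are given as the class with the lowest summed level. Thinning left out 28 and 26 monocyte-like, 5 and 26 inflammatory-like, 98 and 48 Lyve1-like and 66 and 36 Schwann-like cells.

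**Figure D4:**
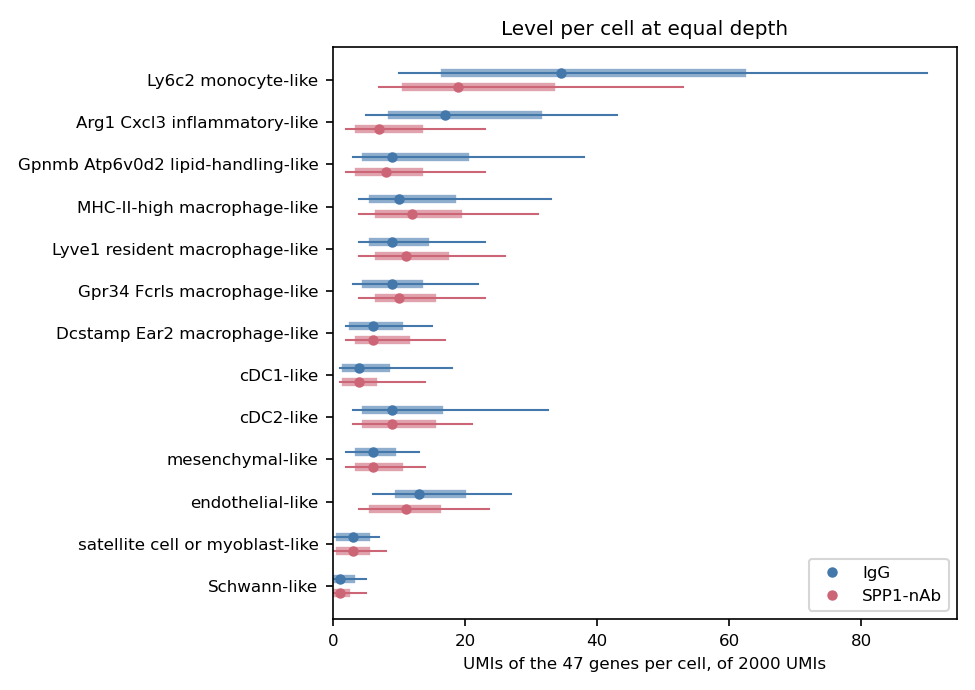
Member UMIs per cell (x axis) after thinning each cell to 2000 UMIs, by class and library, with the point at the median, the thick bar from the lower to the upper quartile and the thin line from the 10th to the 90th percentile. The IgG point of monocyte-like cells (34.5) lies above that of SPP1-nAb (19.0), as in inflammatory-like phagocytes (17 and 7.00), and Schwann-like cells have medians of 1.00 in both libraries.

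Members tended to be high in the same cells of a class. The tenth of monocyte-like cells with the most UMIs of the other members held a median of 26.1% (IgG) and 29.1% (SPP1-nAb) of a member's UMIs, and 8.59% and 9.01% of those of other genes. In inflammatory-like phagocytes the members had 29.4% and 39%, and other genes 9.30% and 9.45%. Members had 37.3% and 35.7% in lipid-handling-like phagocytes, 37.7% and 32.1% in MHC-II-high-like and 33.5% and 26.4% in Lyve1 macrophage-like cells. They had 33.5% and 19.2% in cDC2-like and 21.0% and 15.7% in mesenchymal-like cells, and other genes 9.25% to 9.80% in these classes. Each median covers the members with 100 UMIs in that library after thinning. These were 14 and 8 in cDC2-like, 17 and 9 in mesenchymal-like and 28 and 22 in inflammatory-like cells. The 2 values of a class thus rest on different sets of members, and their difference was not tested. For other genes too the cells were ranked by member UMIs, and no other gene was ranked by a gene set of its own. The shares thus describe how far members were high in the same cells. Whether members were more concentrated than other genes was not tested. Members differed among themselves. In IgG monocyte-like cells *Ifitm3* had 14.9% and *Slfn2* 15.1%, below the 95th percentile of other genes (18.6%). The lowest members in Lyve1 macrophage-like cells were *Irf1* with IgG (9.42%) and *Irf9* with SPP1-nAb (8.33%).

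The ligand and receptor genes were counted in the same cells. The 6 interferon receptor genes together were at 915 and 891 CPM in monocyte-like cells (−0.04, −0.10 to 0.02), and none of those with 100 UMIs was past 1.5-fold in the classes counted (5 genes in monocyte-like and 3 in Schwann-like cells). *Ifnar1* was at 108 and 88.5 CPM and *Ifnar2* at 301 and 287. Of the type I ligand genes, *Ifnb1* had 179 of 184 and 358 of 364 UMIs in phagocytes (3.62 and 4.55 CPM, 0.33, 0.07 to 0.60), with 39 and 54 UMIs in Lyve1 macrophage-like cells. In monocyte-like cells it had 5 UMIs and 0, and none in plasmacytoid dendritic-like cells. In cDC2-like cells *Ifnb1* had 10 UMIs and 1 (3.78 and 0.344 CPM, −3.45, −8.89 to −0.64).

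Of 41 other interferon-induced genes, 22 of the 39 with 100 UMIs were lower by 1.5-fold in monocyte-like cells (3.68% of all genes) and none higher (2.48%). In inflammatory-like phagocytes 29 of 36 were lower (2.98%) and 1 higher (3.53%). In Lyve1 macrophage-like cells 2 of 38 were lower (3.73%), near the share of all genes, and none higher (3.56%). Of genes led by interferon gamma, 6 of 15 were lower (3.68% of all genes) and 1 higher (2.48%) in monocyte-like cells, where the list summed to 2619 and 2993 CPM (0.19). That sum holds *H2-Aa*, at 1191 and 1538 CPM, and the list includes markers used to gate the MHC-II-high state. *Iigp1* was at 36.4 and 15.6 CPM (−1.22) and *Cxcl9* at 14.9 and 44.3 (1.57). In mesenchymal-like cells the gamma-led list gave 357 and 611 CPM (0.78), with *Iigp1* at 120.4 and 269. Of 10 genes there, 6 were higher (5.22% of all genes) and none lower (7.15%). The free-RNA estimate for mesenchymal-like cells was 11.5% and 21.2%, and the same list gave 5274 CPM in all mononuclear phagocyte-like cells of both libraries. The part of free RNA in the mesenchymal values was not tested. In Schwann-like cells the list gave 135 and 204 CPM (0.60, 0.32 to 0.89). There 2 of 2 genes were higher (1.45% of all genes) and none lower (2.08%). Free RNA was estimated at 9.93% and 10.2% there, and its part was not tested. In Lyve1 macrophage-like cells the list gave 2605 and 1879 CPM (−0.47), with 1 of 10 genes lower (3.73% of all genes) and 2 higher (3.56%). For comparison, none of 10 NF-κB target genes was past 1.5-fold in monocyte-like cells (sum −0.02). Of these 10, 2 were lower in inflammatory-like phagocytes (sum −0.32, 2.98% of all genes lower) and 3 higher in Lyve1 macrophage-like cells (sum 0.52, 3.56% of all genes higher).

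**Figure D5:**
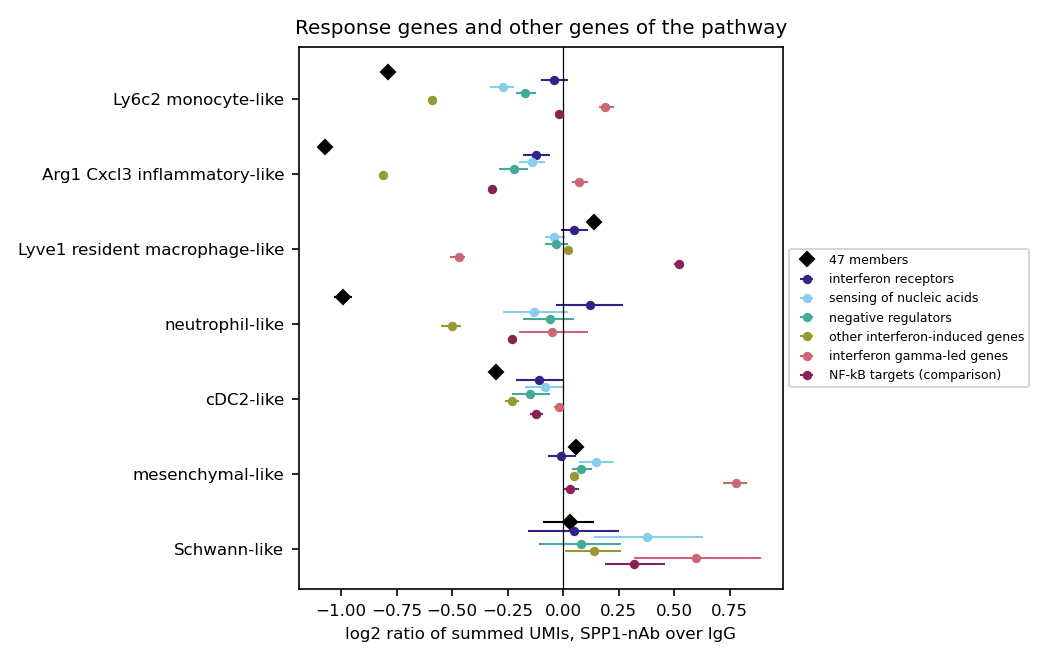
Log2 ratio of SPP1-nAb over IgG for the summed UMIs of the 47 members (diamonds) and of other gene lists (circles) in 7 cell classes, with exact 95% counting intervals as lines. Receptors lie near 0 (−0.04 in monocyte-like cells), and the other interferon-induced genes below 0 in monocyte- and inflammatory-like cells (−0.59 and −0.81). The gamma-led list lies above 0 in mesenchymal- and Schwann-like cells (0.78 and 0.60) and below 0 in Lyve1 macrophage-like cells (−0.47). Free RNA was not subtracted from these sums.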

How the data were processed

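Single cells of 2 pools of mice were profiled by scRNA-Seq. The authors deposited raw UMI counts per gene and barcode, whole numbers without normalization; the submitters' processing notes name Cell Ranger 8.0.0 and GRCm39, the file headers CellRanger 9.0.1, and the methods of the study also GRCm38. The later removal of ambient RNA and doublets by the authors is not in these counts. Barcodes with more than 200 genes and under 10% mitochondrial UMIs were used, and the 10% with the highest doublet scores per library, from 2 simulated doublets per barcode, were removed. Cells were gated by at least 3 detected markers of a class, and phagocytes by state scores. The members, gene lists and markers were chosen with earlier results of these data known. No member is among the gating markers. One list of signaling genes is not reported here.

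UMIs were summed per gene, class and library and divided by all UMIs of those cells (CPM), with exact Poisson intervals, and shares of cells were given with Clopper-Pearson intervals. Log2 ratios of SPP1-nAb over IgG had the exact binomial interval. Members with at least 100 UMIs over both libraries were counted past 1.5-fold beside all genes of that count, and medians used 30 UMIs. In monocyte-like cells full values were given for the 2 members per role with the most UMIs and for some others past the fold. In the other classes values were given for selected members. The rest are held in the counts, so members without printed values can also be past the fold. Free RNA was estimated per class from the markers of other cell types, relative to the library. For per-cell values, cells were thinned to 2000 UMIs. Alternatives covered filters, doublets, classes from clusters, free RNA, thinning, gene choice and fold. On simulated counts for monocyte-like cells (7062 genes) 185 of 188 genes changed 2-fold were recovered (98.4%) and 0.451% of unchanged genes were called. Those counts held Poisson error only, with no variation between cells, mouse pools or libraries, so 0.451% is not the error rate of the calls. Of the features, 31674 of 32287 were in GENCODE M39 (GRCm39), which gave coordinates, promoters and 3′ windows of 90 bases. Python 3.11.15, NumPy 2.4.6, pandas 2.3.3, SciPy 1.17.1, scikit-learn 1.9.0, igraph 0.11.9, leidenalg 0.10.2 and Matplotlib 3.10.9 were used.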

Additional observations from a re-analysis of the deposited data

Results flagged for a closer look

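Among Ly6c2 monocyte-, inflammatory-, neutrophil-, Lyve1 macrophage- and mesenchymal-like cells, 10 members had log2 ratios past 1.5-fold in opposite directions in 2 classes. The ratios are SPP1-nAb over IgG, each from 1 library per group, so the difference between classes was not tested. Over all classes there were more, such as *Oasl1*, lower in monocyte-like and higher in cDC1-like cells. The share of all genes past the fold in this way is not given. *Isg15* had −1.74 in neutrophil-like and 0.73 in mesenchymal-like cells. In inflammatory-like phagocytes and mesenchymal-like cells, *Rsad2* had −1.72 and 0.80, *Bst2* −1.10 and 0.71, *Zbp1* −1.55 and 0.60, *Irf7* −1.71 and 0.67, and *Rtp4* −1.47 and 0.69. *Ifi47* had −1.08 in neutrophil-like and 0.59 in mesenchymal-like cells, and *Ifi44* −0.86 in monocyte-like and 1.21 in mesenchymal-like cells. *Ifih1* had −1.23 in neutrophil-like and 0.99 in Lyve1 macrophage-like cells, and *Gbp5* −0.84 in monocyte-like and 0.73 in Lyve1 macrophage-like cells. In mesenchymal-like cells the clusters differed between the libraries (57.1% and 25.2% in cluster 8), and the part of this in the values was not tested. *Rsad2* there, at 8.79 and 15.3 CPM, lay below its free-RNA estimates of 17.2 and 20.7, so the estimate is too high for it. Its values were not told apart from background. *Irf7* (17.6 and 27.9 against 15.8 and 20.1), *Isg15* (70.0 and 116 against 56.3 and 68.8), *Zbp1* (15.9 and 24.2 against 10.4 and 15) and *Ifi47* (10.1 and 15.2 against 5.02 and 9.07) were under 2 times theirs in at least 1 library.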

How the results depend on the processing

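The results of the Ly6c2 monocyte-, inflammatory-, lipid-handling-, Lyve1-, neutrophil-, cDC2-, mesenchymal- and Schwann-like classes were recomputed under the alternatives. Those of the other classes and gene lists were not. Of the compared values 183 stayed the same, 58 moved and 3 reversed. Staying the same meant within the counting interval for sums and levels and within 1.5 times for counts. For medians it meant within the quartiles over members, a wide range. Values are log2 ratios of summed members unless a count is named. With classes from clusters, monocyte-like cells had −0.73, inflammatory-like −0.71 (median member −0.81), Lyve1 0.18 (1 member lower), cDC2 −0.41 and Schwann 0.22, and the monocyte level over Schwann was 4.27 and 3.32 (IgG, SPP1-nAb). With no doublets removed, inflammatory had −0.99, lipid-handling −0.52, Lyve1 0.10, neutrophil −0.93 and Schwann −0.23 (median −0.16), with 1 mesenchymal member lower and monocyte over Schwann 4.06 and 3.48. With 20% of doublet scores removed, lipid-handling had −0.58, Lyve1 0.23, cDC2 −0.35 and mesenchymal 0.09, with 1 mesenchymal member lower and monocyte over Schwann 4.64 with IgG. With free RNA subtracted, lipid-handling had −0.57, Lyve1 0.19, neutrophil −0.95 and Schwann 0.20, with 2 mesenchymal members lower and monocyte over Schwann 5.37 and 4.39. Thinned to 2000 UMIs, inflammatory had −1.05, lipid-handling −0.58, Lyve1 0.19 (1 lower), neutrophil −0.73 (median −0.83, 2 lower), cDC2 7 lower and mesenchymal 0.03. Without *Ifitm3*, *Bst2* and *Irf1*, monocyte had −0.91, inflammatory −1.13, Lyve1 0.18, neutrophil −1.05, cDC2 −0.42 and mesenchymal −0.02. Without the member with the most UMIs, these were −0.90, −1.12, 0.17, −1.19, −0.40 and −0.01. At a fold of 2, 19 of 47 members were lower in monocyte-like and 11 of 47 in lipid-handling-like cells. At that fold 0 of 45 were lower in Lyve1 and 8 of 34 in cDC2-like cells. With at least 30 UMIs, 23 of 46 were lower in cDC2, 1 of 44 in mesenchymal and 2 of 19 in Schwann-like cells. For the counts under the alternatives, the share of all genes is not given, so they cannot be set against it. Chosen after seeing the data, mesenchymal cells of cluster 8 had 0.03 and of cluster 11 had 0.11, and leaving out barcodes shared by both libraries moved none of these results. The sign of the Schwann and mesenchymal sums thus depended on the alternative, and the cause was not tested. No paired analysis was possible because each group is 1 library. The limits are 1 library per group, rebuilt classes, shallow neutrophil-like cells and free-RNA estimates that are too high for some members.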
